A study of Mus musculus with 8 samples.

Results

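The genes described here are the Piwi proteins of the mouse and the factors that make and load their small RNAs. They are the 10 genes Piwil1, Piwil2, Piwil4, Mael, Mov10l1, Pld6, Asz1, Ddx4, Mybl1 and Henmt1, which were chosen by gene symbol, and all 10 were found among the 23983 genes of the deposited table. Their levels were read from RNA sequencing of testis tissue of C57BL/6J mice, of ages d12, d16 and d24 and adult, with 1 library for each stage. How many animals gave the tissue of a library is not given in the sources used here. Values are FPKM, fragments scaled to the length of the transcript and to a divisor for each library, so levels of different genes within a library can be compared. The divisor is not simply the number of fragments on genes. A spread between animals and a test between stages were not possible. A gene is said to have risen or fallen when its values differed at least 2-fold on the log2(FPKM + 0.1) scale.

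Piwi proteins are the germline branch of the Argonaute family and bind piRNAs, small RNAs that guide them to transposon and other transcripts. Long precursor transcripts are unwound and cut at the mitochondrial surface, loaded into a Piwi protein, trimmed, and methylated at their 3′ end, and those of pachytene spermatocytes are made under the transcription factor A-MYB. In the mouse, MILI (Piwil2) is present from fetal germ cells to round spermatids, MIWI2 (Piwil4) acts in fetal germ cells in the silencing of transposons by DNA methylation, and MIWI (Piwil1) acts from pachytene spermatocytes to round spermatids. The stages follow the first wave of spermatogenesis, in which later germ cell types are added to the testis one after the other.

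Promoter sequences are shown first. From d12 to d16, 7 of the 10 genes rose, beside 12.6% of the 13901 genes that reached 1 FPKM on average over the libraries. RefSeq windows of 300 bases (GRCm38.p6, from 250 bases before to 50 after an annotated start) were found for 8 of the 10 genes, all but Piwil2 and Mybl1, which were among those that rose. The windows were searched on both strands for 4 words of the MYB recognition sequence, which are TAACTG and the related CAACTG, and in the same way TAACGG and the related CAACGG. Of the 8 genes, 3 have a window with at least one of these words (Piwil1, Pld6 and Mov10l1). By window this is 3 of their 10 (30%), beside 28.3% of all 32851 windows. Piwil1 has CCGTTA at -139 and CAGTTG at -73, read on the printed strand and counted from the start, and 5.09% of all windows hold 2 or more. The windows were then searched for CACGTG, an E box that reads alike on both strands and is bound by bHLH transcription factors, a word chosen after the sequences had been seen. CACGTG is in a window of 5 of the 8 genes, or in 5 of their 10 windows, and in 7.15% of all windows. Of these 5 genes, Mov10l1 did not pass 2-fold from d12 to d16. Henmt1 rose in that step, and its window has neither CACGTG nor a MYB word. A link between these words and the changes in level was not tested. A match is a word in the sequence, and binding was not measured.

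Stretches of these windows are printed for the 5 genes with an E box, 5′ to 3′ in the direction of the gene, with CACGTG and the MYB words in capitals. Positions count from the start of the curated transcript. For Mael and Pld6 this is the first annotated start of the gene, and all 250 bases before it are printed. For Piwil1, Mov10l1 and Ddx4 a predicted transcript starts 175, 103 and 323 bases earlier, so part of the Piwil1 and Mov10l1 windows and all of the Ddx4 window lie inside the annotated gene. Of Piwil1 and Mov10l1 the bases before that earlier start are printed (for Piwil1 to the end of the E box that it cuts), and of Ddx4 30 bases around the E box, which lies inside the gene. The stretches are chr5:128735996-128736072 (plus strand) for Piwil1, chr1:166238745-166238994 (minus strand) for Mael, chr13:112652322-112652351 (minus strand) for Ddx4, chr11:59787658-59787907 (minus strand) for Pld6 and chr15:88982744-88982890 (plus strand) for Mov10l1. Piwil1 holds CACGTG at -179 and at -154, Mael at -223, Ddx4 at -29, Pld6 at -33, and Mov10l1 at -246 with TAACGG at -218. The E box of Piwil1 at -154 and both of its MYB words lie inside the annotated gene and are not printed, nor is the other window of Pld6 with its MYB word.
Piwil1: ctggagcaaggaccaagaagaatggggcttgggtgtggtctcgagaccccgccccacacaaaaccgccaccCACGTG
Mael: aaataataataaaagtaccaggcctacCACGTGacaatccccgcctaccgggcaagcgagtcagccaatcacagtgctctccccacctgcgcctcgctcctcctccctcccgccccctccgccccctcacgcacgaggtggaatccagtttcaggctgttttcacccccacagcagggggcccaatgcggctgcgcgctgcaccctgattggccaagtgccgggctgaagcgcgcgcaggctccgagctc
Ddx4: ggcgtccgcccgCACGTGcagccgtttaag
Pld6: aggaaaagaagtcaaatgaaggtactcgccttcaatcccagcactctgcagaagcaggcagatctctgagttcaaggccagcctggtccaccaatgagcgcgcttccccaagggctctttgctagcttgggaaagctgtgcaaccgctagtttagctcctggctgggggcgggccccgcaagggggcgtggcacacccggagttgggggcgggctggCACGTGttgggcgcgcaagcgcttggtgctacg
Mov10l1: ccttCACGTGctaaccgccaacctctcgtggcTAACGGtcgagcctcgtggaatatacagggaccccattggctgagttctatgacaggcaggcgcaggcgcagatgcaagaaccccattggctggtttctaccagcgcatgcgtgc

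Numbers of fragments were recovered from the low values, which step by a fixed amount in each library. For a transcript of 1 kb, 1 fragment stood for 0.0799 FPKM in d12, 0.080 in d16, 0.0455 in d24 and 0.112 in the adult. Genes held between 8527613 fragments (d12) and 23073421 (d24). Ranges in parentheses are exact 95% intervals from the number of fragments, counted with the shortest curated transcript where a gene has several, and cover counting error only. The median of the 13901 genes changed by 0 on the log2 scale from d12 to d16, by 0.13 from d16 to d24 and by -0.02 from d24 to the adult.

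**Figure D1:**
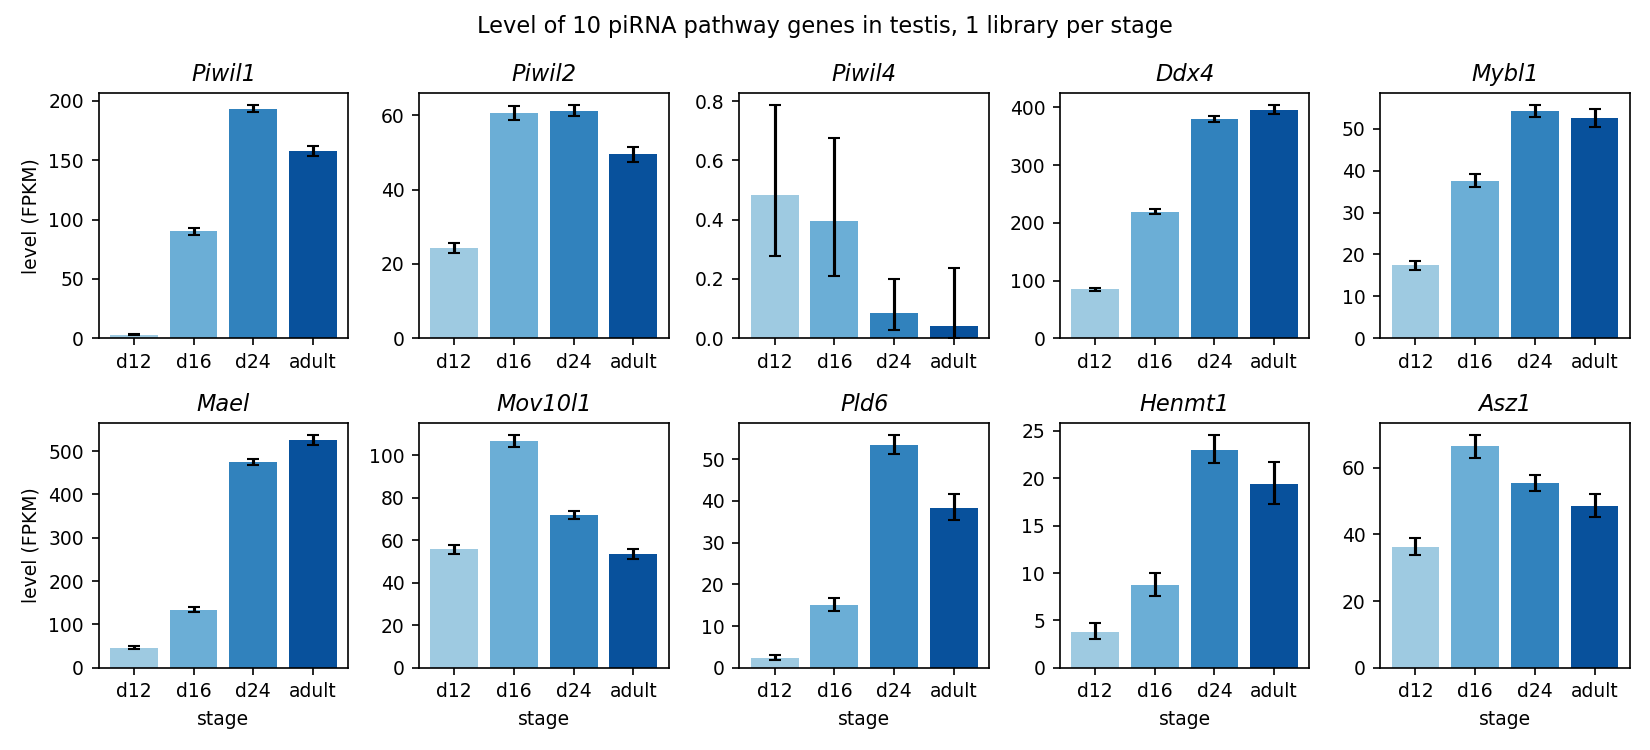
Level in FPKM (vertical axes, from 0, 1 scale per gene) of each of the 10 genes in the d12, d16, d24 and adult libraries (bars, 1 library each), with 95% counting intervals as error bars. Piwil1 goes from 2.9 FPKM in d12 to 193.5 in d24, Mov10l1 and Asz1 are highest in d16 in the deposited scaling (not with division by Gapdh), and Piwil4 is at or under 0.484 FPKM in each library.

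The 3 Piwi genes had separate time courses. Piwil1 (chr5:128736071-128755474 on the plus strand of GRCm38), the Piwi protein of pachytene spermatocytes and round spermatids, rose most of the 10 genes. Piwil1 measured 2.9 (2.44 to 3.41) FPKM in the d12 library, 90.0 (87.4 to 92.7) in d16, 193.5 (190.5 to 196.4) in d24 and 157.9 (153.8 to 162.2) in the adult. The d12 library, with 143 fragments, stood far below the other 3, and no intervals overlap. From d12 to d16 Piwil1 rose 31.1-fold (26.3 to 37), more than 99% of the 13901 genes. From d16 to d24 it rose 2.15-fold (2.08 to 2.22), more than 74.2% of them. This call was lost under 3 of the 4 other scalings between libraries, with log2 changes of 0.49 after setting all FPKM sums equal (same sum), 0.82 after scaling by the upper quartile, and 0.58 after scaling by the recovered number of fragments on genes (implied fragments). For Piwil1, the adult to d24 ratio was 0.816 (0.792 to 0.842).

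Piwil2 (chr14:70372477-70436898 on the minus strand of GRCm38) was already well above Piwil1 in the youngest testis. In the order d12, d16, d24 and adult, Piwil2 measured 24.3 (23.1 to 25.5), 60.6 (58.6 to 62.5), 61.3 (59.8 to 62.7) and 49.5 (47.4 to 51.6) FPKM. It rose 2.49-fold (2.35 to 2.65) in the first step. The d16 and d24 intervals overlap, and their ratio was 1.01 (0.971 to 1.05), a log2 change of 0.02 that was -0.60 with the same sum, -0.51 with implied fragments and 1.17 with division by Gapdh. The lowest stage was d12. Piwil2 overlaps the annotated genes Gm22725 and Gm24890 on its own strand, and Mov10l1 overlaps Gm23737, so the origin of fragments in these stretches is uncertain.

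Piwil4 (chr9:14701776-14740672 on the minus strand of GRCm38) was the lowest member at each stage. The libraries gave 0.484 (0.277 to 0.787) FPKM of Piwil4 for d12, 0.394 (0.21 to 0.674) for d16, 0.0863 (0.028 to 0.201) for d24 and 0.0425 (0.00108 to 0.237) for the adult. These values correspond to 16, 13, 5 and 1 fragments for a transcript of 2638 bases, a length between the shortest and the longest curated transcript (2028 and 3257 bases) at which all 4 come out whole. The d12 and d16 intervals overlap, and the adult interval overlaps with those of d16 and d24. From d16 to d24 Piwil4 fell by 1.41 on the log2 scale, and the ratio of the FPKM values was 0.219 (0.0611 to 0.654), an interval that reaches into the range within 2-fold. With a pseudocount of 1 FPKM the change was -0.36. Its change from d12 to d16 was -0.24, and 0.30 with each library divided by Gapdh. Piwil4 is the only member with a mean under 1 FPKM.

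The order of Piwil1 and Piwil2 changed between d12 and d16. Ratios of genes within a library do not depend on how libraries were scaled to each other. The level of Piwil1 relative to Piwil2 was 0.119 (0.0997 to 0.142) in d12, 1.49 (1.42 to 1.55) in d16, 3.16 (3.07 to 3.25) in d24 and 3.19 (3.04 to 3.36) in the adult. Piwil1 was thus the lower of the pair in d12 and the higher in the other 3 libraries, and the last pair of ratios overlap in their intervals. Of the summed FPKM of the 3 Piwi genes, Piwil1 made up 10.5% in d12, 59.6% in d16, 75.9% in d24 and 76.1% in the adult. Relative to Piwil2, Piwil4 was at 0.020 (0.0114 to 0.0325) in d12, 0.00651 (0.00346 to 0.0111) in d16 and 0.00141 (0.000457 to 0.00329) in d24.

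**Figure D2:**
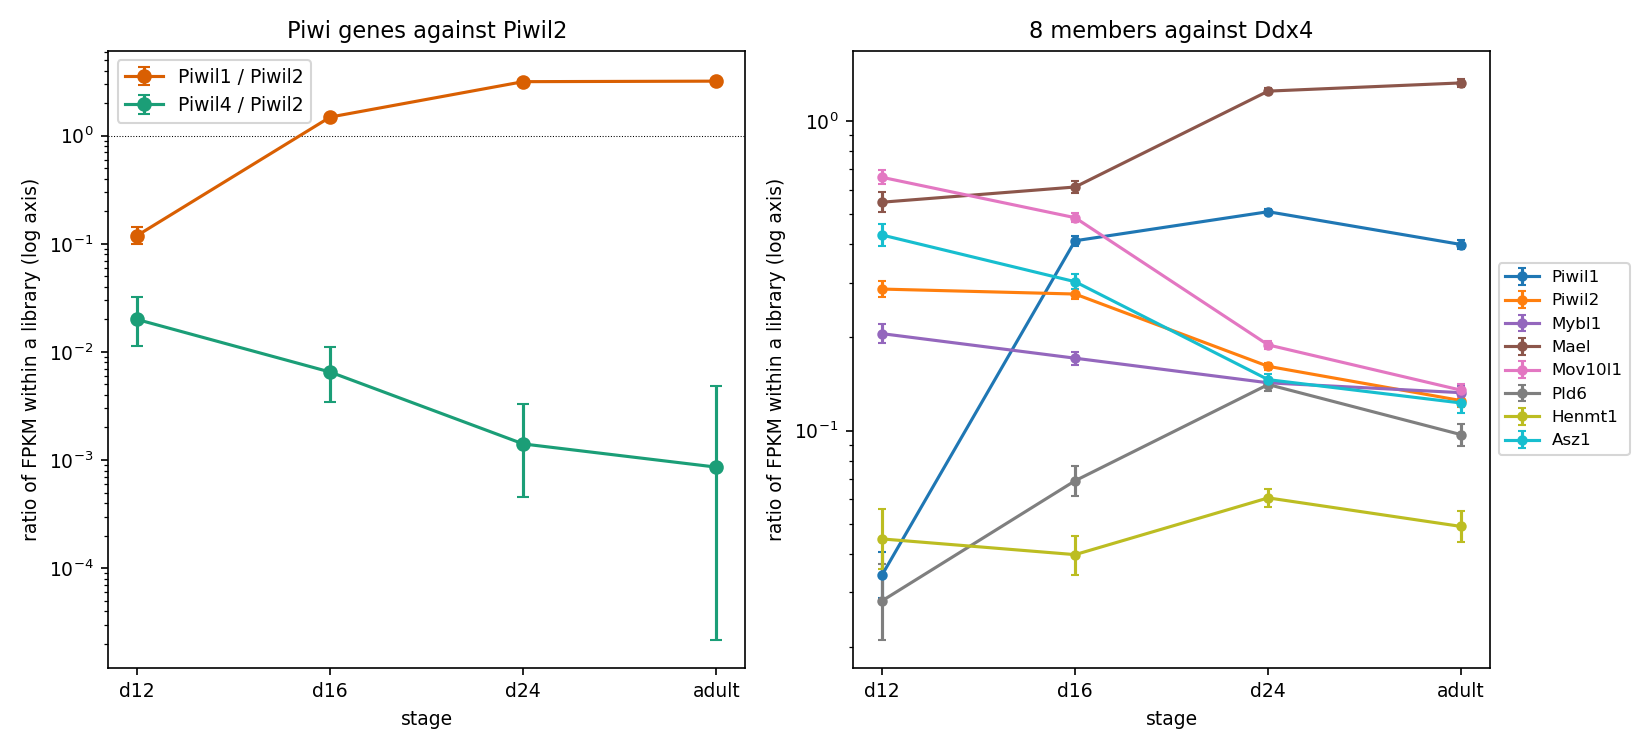
Ratios of FPKM within a library (vertical axes, log scale) at each stage, with 95% counting intervals as error bars; on the left Piwil1 and Piwil4 over Piwil2, on the right 8 members over Ddx4. Piwil1 crosses from 0.119 to 1.49 times Piwil2 between d12 and d16, and Mael crosses from 0.612 to 1.25 times Ddx4 between d16 and d24.

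Mybl1 (chr1:9667407-9700439 on the minus strand of GRCm38) encodes A-MYB, the transcription factor of pachytene piRNA precursors and of many meiotic genes. In the order d12, d16, d24 and adult, Mybl1 measured 17.4 (16.4 to 18.5), 37.6 (36 to 39.2), 54.2 (52.8 to 55.6) and 52.5 (50.3 to 54.7) FPKM. It rose 2.16-fold (2.0 to 2.32) in the first step, which came under 2-fold with the same sum (log2 change 0.99) and the upper quartile (0.97). The d24 to d16 ratio was 1.44 (1.37 to 1.51), with a log2 change of 0.53 that was -0.09 with the same sum, and the d24 and adult intervals overlap. In d12, where Piwil1 was at 1.5% of its highest level, Mybl1 was at 32.2% of its own.

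Ddx4 (chr13:112598333-112652633 on the minus strand of GRCm38), the germ cell RNA helicase VASA (MVH) of the germ granules, was the highest member in d12 and d16. The libraries gave 84.7 (81.7 to 87.9) FPKM of Ddx4 for d12, 219.3 (214.4 to 224.3) for d16, 379.8 (374.9 to 384.7) for d24 and 395.8 (388 to 403.7) for the adult. It rose 2.59-fold (2.48 to 2.7) in the first step, and the d24 to d16 ratio was 1.73 (1.69 to 1.78). The adult to d24 ratio was 1.04 (1.02 to 1.07), and the log2 change of 0.06 in this step turned negative under all 4 other scalings, down to -0.42 with the same sum.

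Mael (chr1:166201385-166238744 on the minus strand of GRCm38) encodes Maelstrom, a germ granule protein of transposon silencing. Mael measured 46.3 (43.4 to 49.5) FPKM in the d12 library, 134.3 (129.2 to 139.5) in d16, 474.3 (467 to 481.7) in d24 and 525.5 (513.4 to 537.7) in the adult. It rose 2.9-fold (2.68 to 3.13) from d12 to d16 and 3.53-fold (3.39 to 3.68) from d16 to d24. In d24 and in the adult it was the highest of the 10 genes. Its change from d24 to the adult was 0.15, and between -0.33 and 0.08 under the other scalings, negative in 3 of 4. Its level relative to Ddx4 was 0.612 (0.585 to 0.64) in d16 and 1.25 (1.22 to 1.27) in d24.

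Mov10l1 (chr15:88982891-89055152 on the plus strand of GRCm38), the RNA helicase that binds and unwinds piRNA precursors, and Asz1 (chr6:18050964-18109061 on the minus strand of GRCm38), the scaffold GASZ on the outer mitochondrial membrane, were the members with their highest level in d16. In the order d12, d16, d24 and adult, Mov10l1 measured 55.7 (53.7 to 57.8), 106.9 (104 to 109.8), 71.8 (70.1 to 73.6) and 53.4 (51.1 to 55.9) FPKM. The libraries gave 36.3 (33.8 to 38.9) FPKM of Asz1 for d12, 66.4 (63 to 69.9) for d16, 55.5 (53.2 to 57.9) for d24 and 48.6 (45.2 to 52.2) for the adult. The d12 and adult intervals of Mov10l1 overlap. Neither gene passed 2-fold in any step in the deposited scaling, with d16 to d12 ratios of 1.92 (1.83 to 2.01) for Mov10l1 and 1.83 (1.67 to 2.0) for Asz1. Their change from d16 to d24 was -0.57 and -0.26 on the log2 scale, and both stayed negative with the same sum (-1.19 and -0.88), the upper quartile and implied fragments. With each library divided by Gapdh they were 0.58 and 0.90, where Gapdh itself went from 68.9 FPKM in d12 to 42.6 in d16 and 19.1 in d24.

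Within a library, both stood lower against Ddx4 at each later stage, as did Piwil2, Mybl1 and Piwil4. From d12 to the adult, Piwil2 relative to Ddx4 went from 0.287 to 0.125 and Mybl1 from 0.206 to 0.133. The d12 and d16 intervals of Piwil2 overlap, as do the d24 and adult intervals of Mybl1. For Piwil4 the adult ratio rests on 1 fragment, and its interval holds that of d24, so a fall in that step is not shown. Ddx4 itself was higher in d16 and d24 than in the stage before. Mov10l1 relative to Ddx4 was at 0.658 (0.624 to 0.693) in d12, 0.487 (0.47 to 0.505) in d16, 0.189 (0.184 to 0.194) in d24 and 0.135 (0.129 to 0.142) in the adult. For Asz1 the ratios were 0.428 (0.396 to 0.464), 0.303 (0.286 to 0.32), 0.146 (0.14 to 0.153) and 0.123 (0.114 to 0.132). Mov10l1 and Asz1 also had the closest profiles of any 2 members, with a distance of 0.433 over the 4 libraries on the centred log2 scale, next to 0.434 for Ddx4 and Henmt1. Piwil1 and Piwil4 were the farthest apart, at 6.3.

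Pld6 (chr11:59783893-59787657 on the minus strand of GRCm38), the mitochondrial endonuclease Zucchini (MitoPLD), was among the lowest members in d12, with 53 fragments. Pld6 measured 2.39 (1.79 to 3.13) FPKM in the d12 library, 15.1 (13.5 to 16.8) in d16, 53.5 (51.2 to 55.9) in d24 and 38.4 (35.4 to 41.6) in the adult. It rose 6.32-fold (4.71 to 8.6) from d12 to d16 and 3.54-fold (3.15 to 3.99) from d16 to d24. No intervals overlap. Among the members, Pld6 had the profile nearest to that of Piwil1, at a distance of 1.71.

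Henmt1 (chr3:108939454-108979885 on the plus strand of GRCm38) is the methyltransferase of piRNA 3′ ends. The libraries gave 3.79 (3.04 to 4.71) FPKM of Henmt1 for d12, 8.72 (7.53 to 10.0) for d16, 23 (21.6 to 24.6) for d24 and 19.4 (17.3 to 21.7) for the adult. It rose 2.3-fold (1.76 to 2.99) and then 2.64-fold (2.26 to 3.1), and the d24 and adult intervals overlap. The second call was lost with the same sum (log2 change 0.78) and implied fragments (0.87). Relative to Ddx4 its level lay between 0.0397 (0.0342 to 0.0458) in d16 and 0.0606 (0.0567 to 0.0648) in d24.

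By level, the order of the members in d12 was Ddx4, Mov10l1, Mael, Asz1, Piwil2, Mybl1, Henmt1, Piwil1, Pld6 and Piwil4, where Piwil1 overlaps in its interval with both neighbours. In d24 the order was Mael, Ddx4, Piwil1, Mov10l1, Piwil2, Asz1, Mybl1, Pld6, Henmt1 and Piwil4, with overlapping intervals between Asz1 and Mybl1 and between Mybl1 and Pld6. Piwil1 thus stood in place 8 in d12 and in place 3 in d24. In the adult Mov10l1, Mybl1, Piwil2 and Asz1 lay between 48.6 and 53.4 FPKM, each overlapping with its neighbour.

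Counted over the steps, 7 of the 10 members rose from d12 to d16 and 0 fell, beside 12.6% of the 13901 genes that rose and 3.67% that fell. The median change of the members was 1.25 on the log2 scale. From d16 to d24, 4 rose (Mael, Pld6, Henmt1 and Piwil1) and Piwil4 fell, beside 27.5% of all genes that rose and 8.45% that fell, and the median change of the members was 0.66. From d24 to the adult 0 of the 10 rose or fell, beside 11.4% and 2.2%, and the median change was -0.27. The share of members that rose exceeded that of all genes by more in the first step than in the second, and was below it in the last.

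The counts of the second step depend on the scaling between libraries. With all libraries rescaled to the same FPKM sum, Mael and Pld6 rose from d16 to d24, and Piwil4 and Mov10l1 fell, beside 19.4% and 30.2% of all genes. With division by Gapdh, 7 rose, beside 60.0% of all genes. The first step gave between 6 and 9 members that rose under the 4 other scalings, beside 11.5% to 27.9% of all genes.

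**Figure D3:**
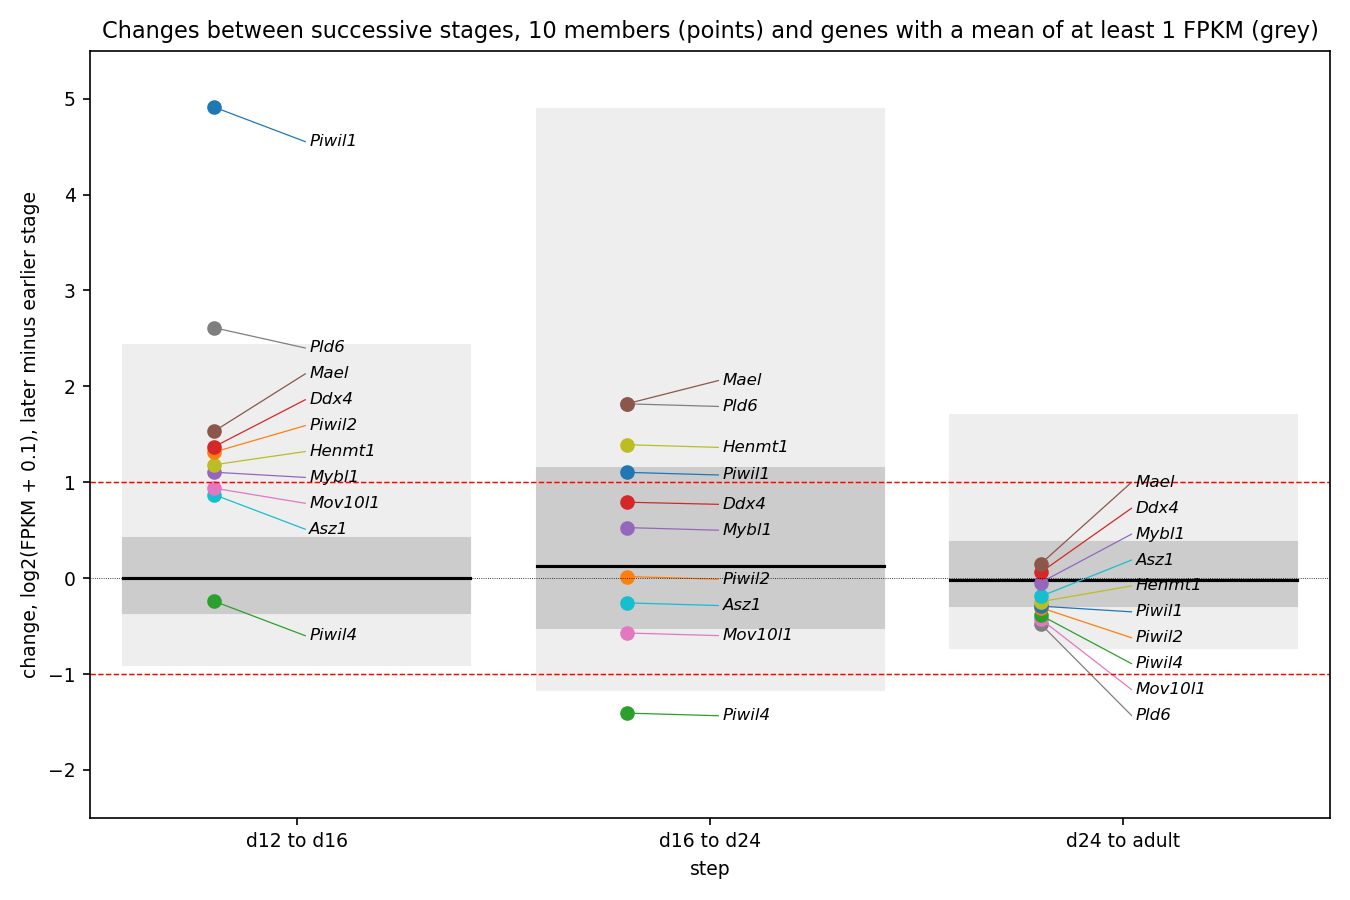
Change on the log2(FPKM + 0.1) scale, later minus earlier stage, in each of the 3 steps for the 10 members (coloured points) and for the 13901 compared genes (light grey 5th to 95th percentile, dark grey quartiles, black line median); dashed red lines mark 2-fold. In the first step Piwil1 (4.91) and Pld6 (2.61) lie above the grey range, and in the last step all 10 members lie between -0.48 and 0.15.

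Other genes of the pathway were read from lists of their known roles. Of 9 genes with Tudor domains, which bind methylated arginines of Piwi proteins in germ granules, 8 rose from d12 to d16 and 0 fell, beside 12.6% and 3.67% of all genes. Rnf17, Stk31 and Tdrd7 passed 2-fold narrowly, with ratios of 2.14, 2.13 and 2.16, and came under it with the same sum and the upper quartile, where 5 of the 9 rose. The exception was Tdrkh, a mitochondrial partner of Piwi proteins, with a ratio of 1.58 (1.28 to 1.93). Tdrd6, a protein of the chromatoid body, rose most of them, from 0.328 (0.219 to 0.484) FPKM in d12 (27 fragments) to 28.4 (27.2 to 29.6) in d16. Its change was 6.06 on the log2 scale, beside 4.91 for Piwil1. From d16 to d24 Tdrd6 and Tdrd7 rose, by 8.47-fold (8.12 to 8.83) and 4.14-fold (3.85 to 4.46), beside 27.5% of all genes. From d24 to the adult 0 of the 9 rose or fell, beside 11.4% and 2.2% of all genes. With the same sum Tdrd1 fell in that step (-1.02 on the log2 scale), beside 10.0% of all genes.

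Of 8 further genes of piRNA processing, Gtsf1 and Exd1 rose from d12 to d16 and 0 fell, beside 12.6% and 3.67% of all genes. Gtsf1, a zinc finger partner of Piwi proteins, measured 9.18, 39.2, 179.2 and 287.2 FPKM in stage order, and was the only one of the 8 that rose from d16 to d24, by 4.57-fold (4.09 to 5.12), beside 27.5% of all genes. Exd1 measured 2.72 FPKM in d12 and 6.08 in d16. Pnldc1, the trimmer of piRNA 3′ ends, measured 3.4, 4.17, 3.42 and 2.26 FPKM, and Fkbp6, a cochaperone of piRNA loading, measured 39.3, 41.3, 30.6 and 21.8 FPKM. Neither passed 2-fold in a step in the deposited scaling. With the same sum, Fkbp6 changed by -1.05 on the log2 scale from d16 to d24 and Pnldc1 by -1.03 from d24 to the adult. Mov10l1 relative to Mov10, its more widely expressed paralog, was at 7.21 (6.42 to 8.08) in d12 and 25 (19.6 to 32.5) in the adult.

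Of 4 transcription factors, Tcfl5, a bHLH factor of germ cells, rose in the first step and in the second, beside 12.6% and 27.5% of all genes. Tcfl5 measured 17.1, 63.3, 193.7 and 237.1 FPKM in stage order. Its second rise came to 0.99 on the log2 scale with the same sum, just under 2-fold. Btbd18, a nuclear protein of pachytene piRNA precursor transcription, measured 9.98 FPKM in d12 and 8.54 in d16. It fell to 4.06 in d24 with a ratio of 0.475 (0.408 to 0.553), beside 8.45% of all genes. This fall was not there with division by Gapdh (0.08 on the log2 scale). Of the relatives of A-MYB, Mybl2 lay between 2.64 and 4.34 FPKM and Myb measured at most 0.35. Mybl1 relative to Mybl2 was at 4.37 (3.73 to 5.13) in d12 and 14.3 (11.9 to 17.2) in d16.

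**Figure D4:**
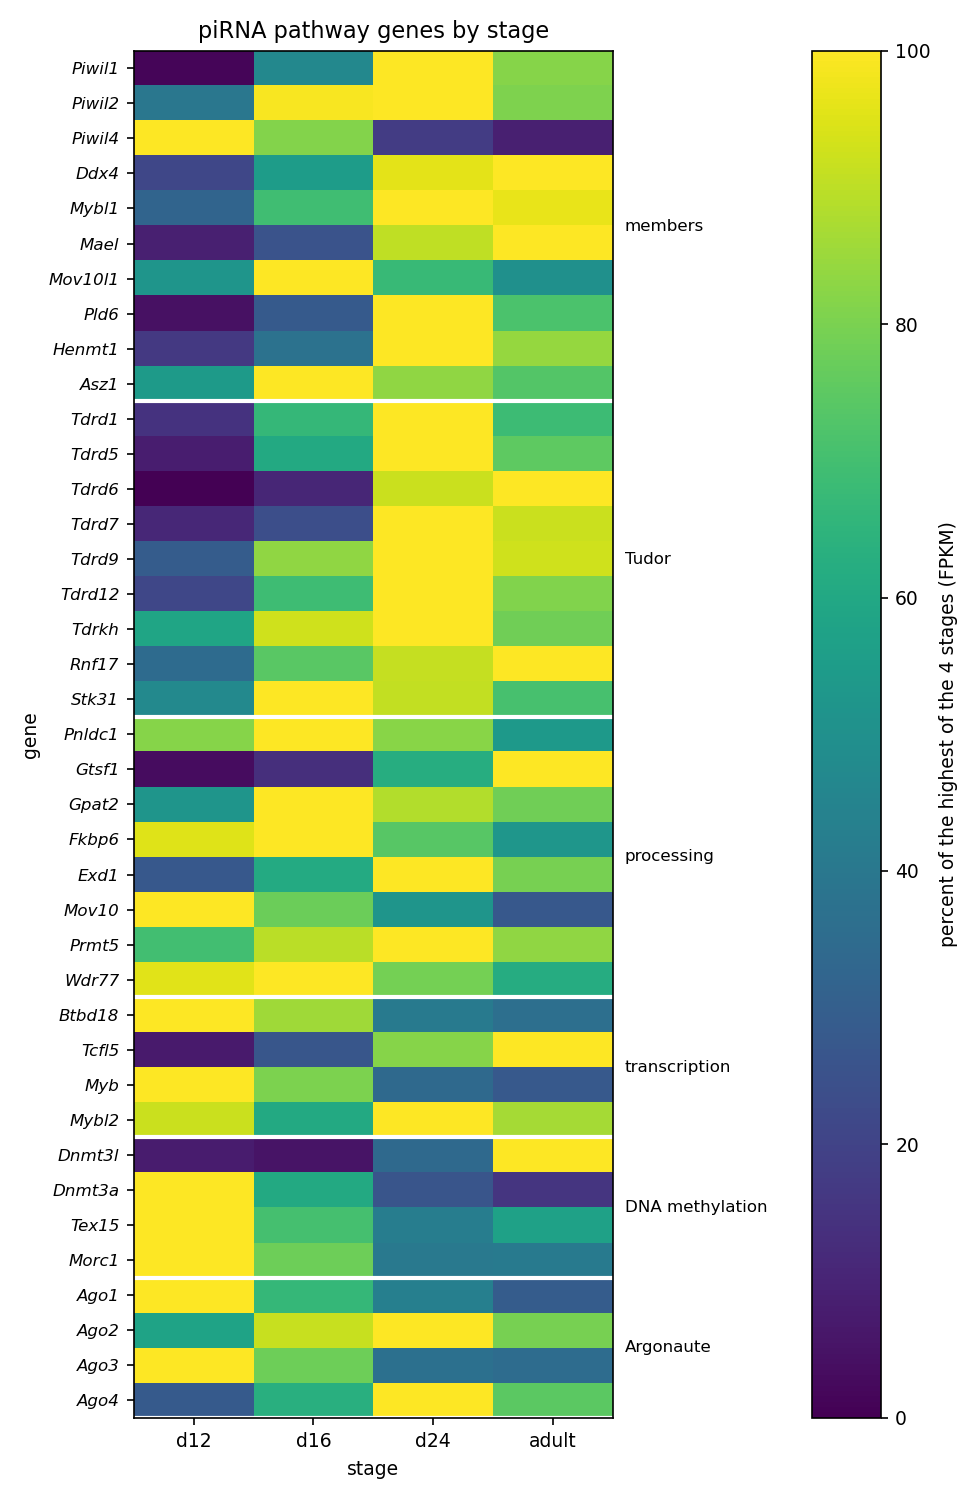
Level of the 10 members and of 29 other genes of the piRNA pathway and its relatives (rows, grouped by list) in the d12, d16, d24 and adult libraries (columns), as a percentage of each gene's own highest stage in FPKM (colour). Of the Tudor genes 6 are highest in d24, while Piwil4, Mov10, Dnmt3a, Tex15 and Morc1 are among the genes highest in d12.

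The cell types present changed along with the members. In tissue RNA, fewer cells of a type and less RNA per cell cannot be told apart. In stage order, the 10 members summed to 274.4, 739.3, 1367 and 1341 FPKM. The 6 markers of pachytene spermatocytes summed to 48, 820.4, 3876 and 4621 FPKM (mainly Hspa2 and Ldhc). All 6 rose in the first step and in the second, beside 12.6% and 27.5% of all genes. Both sums were lowest in d12. The sums were 782.6, 1416, 878.2 and 863.7 for early spermatocytes (mainly Sycp1 and Sycp3), 3.54, 14.8, 471.4 and 1105 for round spermatids (Acrv1 and Catsper3 listed at 0 in d16) and 13.2, 4.45, 2363 and 26392 for elongating spermatids. For spermatogonia they were 222.1, 125.5, 66.8 and 47.9, for Sertoli cells 180.6, 136.7, 85.6 and 64.5 (Amh listed at 0 in the adult) and for Leydig cells 131.6, 82.4, 153.4 and 580.7. Of the 6 early spermatocyte markers 1 rose from d12 to d16, beside 12.6% of all genes. Dmc1 and Prdm9 had lower values in d16 (33.3 and 12.2 FPKM) than in d12 (45.7 and 15.7). Of the 6 elongating spermatid markers 4 fell in this step, beside 3.67% of all genes. In d12 each of the 6 stood between 0.0419% (Prm2) and 0.0678% (Tnp1) of its adult level. The study places d12 at the meiotic stage, and the source of these d12 fragments was not tested. The sums for spermatogonia and Sertoli cells were lower at each later stage, but Gfra1 was highest in the adult (1.2, 0.814, 1.18 and 2.41 FPKM in stage order) and Rhox5 measured 20.3 FPKM in d12 and 20.4 in d16. The part of these changes in the members' levels was not tested.

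**Figure D5:**
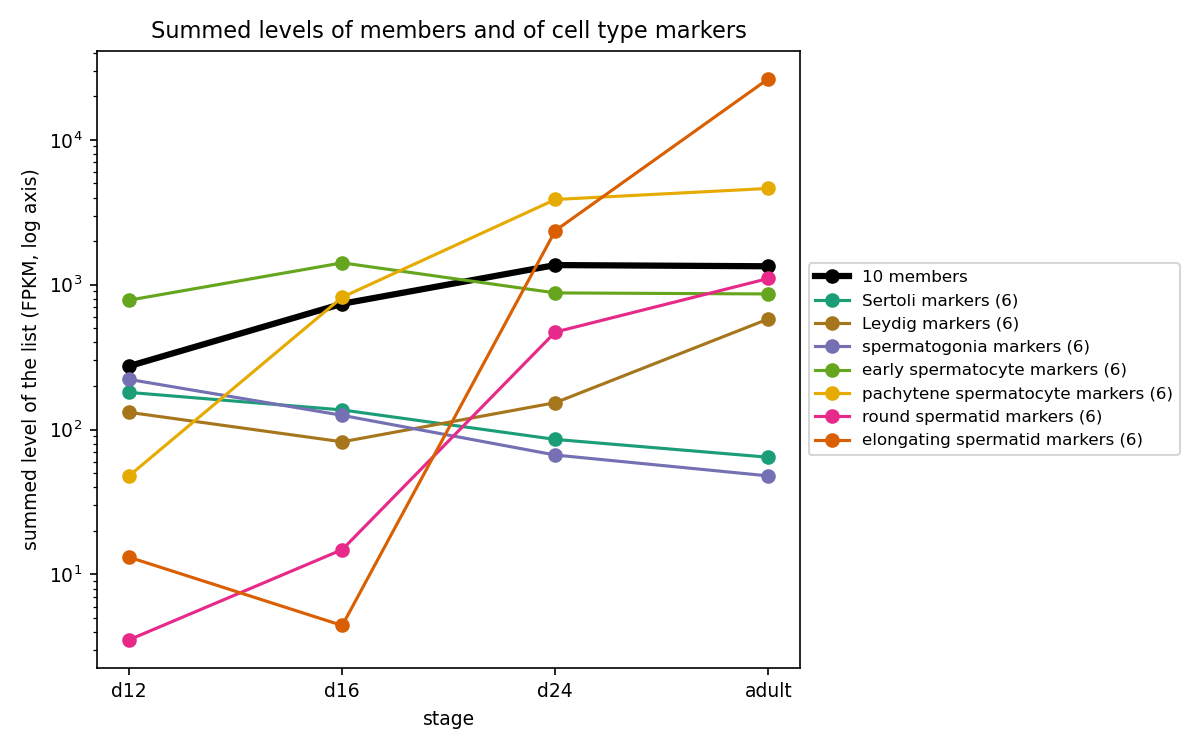
Summed FPKM (vertical axis, log scale) of the 10 members (black) and of lists of 6 markers each for 7 testis cell types at each stage, 1 library per stage. The members go from 274.4 to 1367 FPKM between d12 and d24, while the pachytene spermatocyte markers go from 48 to 3876 and the Sertoli cell markers from 180.6 to 85.6.

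By profile over the 4 libraries, the genes most like Piwil1 among the 13901 were 4921525O09Rik, Elfn2 and 1700006A11Rik, at distances of 0.173, 0.203 and 0.387 on the centred log2(FPKM + 0.1) scale. Those most like Piwil2 were Wdr5b, Mtg1 and Fbxo3, at 0.0954, 0.102 and 0.131. Each profile has only 4 values.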

How the data were processed

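The 4 RNA samples are strand-specific paired-end libraries of total RNA, and the 4 ChIP-seq samples are not analysed here. Per the study's methods and the labels, alignment was by TopHat2 2.1.0 over bowtie 1.1.2 (GRCm38), and the deposited FPKM values were made by the authors in Cuffdiff (Cufflinks 2.2.1), corrected for bias and for reads with several alignments. Their scaling between libraries is not given in the sources used here, and every fold between stages depends on it. The divisor recovered from the low values was 8913230 fragments in the adult, where genes held 11695870. In d12 it was 12519176, where genes held 8527613.

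Values were compared as log2(FPKM + 0.1) in python 3.11.15 (pandas 2.3.3, scipy 1.17.1, numpy 2.4.6). Between 89.8% and 90.3% of low values (up to 20 fragments) in 11885 genes with 1 curated RefSeq transcript lay within 0.05 of a whole fragment. Intervals are exact Poisson for levels and Clopper-Pearson for ratios. On data simulated for 23983 genes, 200 of 200 raised 4-fold passed 2-fold, as did 6 of 13717 unchanged ones. The simulation had the same length for every gene, counting noise only, and equal scaling of both libraries. The raised genes had a mean of at least 5 FPKM. It therefore does not give the rate of false calls between these libraries, where animals and scaling may differ.

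The members, gene lists and comparisons were chosen with earlier results of these data known. Named genes are the members, genes of the lists, and the 3 profiles nearest to Piwil1 and to Piwil2. Dnmt3c and Spocd1 were listed but not matched. Alternatives were 4 scalings, 2 pseudocounts, folds of 1.5 and 4, other denominators and a filter of 5 FPKM.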

Additional observations from a re-analysis of the deposited data

How the results depend on the processing

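No stage has replicates, so no library could be left out, and no paired analysis was possible because each stage has 1 library. Of 306 alternatives over 58 values, 171 moved a count by at most 1.5 times or left a value inside its counting interval, and 135 moved more. A reversed direction was looked for only in the 180 alternatives for log2 changes of members, and only where the reported change was at least 2-fold. There 0 were reversed. Changes under 2-fold did turn sign, such as those of Mov10l1 and Asz1 from d16 to d24 with division by Gapdh. The causes were not tested, except that a higher fold keeps fewer genes by construction.

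The scalings moved the median change of all genes from d16 to d24 by between -0.61 (same FPKM sum) and 1.14 (Gapdh) on the log2 scale. Rescaling by implied fragments and requiring the whole counting interval past 2-fold were added after the values were seen. Members that rose from d12 to d16 numbered 2 at 4-fold. From d16 to d24 they numbered 2 with the same FPKM sum and with implied fragments, 7 with Gapdh and 0 at 4-fold. Members that fell in that step numbered 2 with the same sum and with implied fragments, and 0 with Gapdh, with a pseudocount of 1 FPKM, at 4-fold and by the whole interval. With the same sum, 19.4% of all genes rose and 30.2% fell in that step, with implied fragments 20.4% and 26.3%, and with Gapdh 60.0% and 0.360%. The shares of all genes at 4-fold, with a pseudocount of 1 FPKM and by the whole interval are not given here. The member counts at those settings therefore have no background beside them.

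Of the 29 other genes, 4 rose from d12 to d16 at 4-fold and 1 fell at 1.5-fold. Percentages in parentheses are the shares of all genes, which are not given here for the other folds, the pseudocount and the whole interval. From d16 to d24, 17 of the 29 rose with Gapdh (60.0%) and 9 at 1.5-fold. In that step 9 fell with the same sum (30.2%), 8 with implied fragments (26.3%), 5 with the upper quartile (17.0%) and 0 with Gapdh (0.360%). Further, 7 fell at 1.5-fold, 1 with a pseudocount of 1 FPKM or by the whole interval, and 0 at 4-fold. From d24 to the adult, 2 rose at 1.5-fold and 0 at 4-fold or by the whole interval. In that step 4 fell with the same sum (10.0%), 2 with implied fragments (5.45%), 1 with the upper quartile (4.13%) and 2 at 1.5-fold.

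Over Ddx4 in place of Piwil2, the ratio of Piwil1 was 0.0342, 0.410, 0.509 and 0.399 in stage order, and that of Piwil4 was 0.00572, 0.00180 and 0.000227 in d12, d16 and d24. Of the nearest profiles, 0 of 3 for Piwil1 and 1 of 3 for Piwil2 were shared with a pseudocount of 1 FPKM, and 1 of 3 for Piwil2 with a mean of at least 5 FPKM.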

Other observations

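The genes that act with MIWI2 in DNA methylation of transposons in fetal germ cells were measured in these postnatal testes too. Dnmt3a measured 18.6 (17.8 to 19.4) FPKM in the d12 library, 11.3 (10.7 to 11.9) in d16, 4.89 (4.58 to 5.21) in d24 and 2.87 (2.51 to 3.27) in the adult. Dnmt3a, a DNA methyltransferase, fell from d16 to d24 with a ratio of 0.432 (0.397 to 0.471), beside 8.45% of all genes. With division by Gapdh, Dnmt3a changed by -0.05 on the log2 scale in this step. Tex15, which binds MIWI2 and is also needed in meiosis, measured 109.2, 76.9, 46.2 and 62.7 FPKM in stage order, and Morc1 measured 9.16, 7.13, 3.72 and 3.75 FPKM. Neither passed 2-fold in a step in the deposited scaling. From d16 to d24 both fell past 2-fold with the same sum (log2 changes of -1.35 and -1.53), the upper quartile (-1.02 and -1.20) and implied fragments (-1.26 and -1.44). Of all genes, 30.2%, 17.0% and 26.3% fell in this step with these scalings. With division by Gapdh the changes of Tex15 and Morc1 were 0.42 and 0.21. In the order d12, d16, d24 and adult, Dnmt3l measured 0.286 (0.0777 to 0.73), 0.191 (0.0442 to 0.626), 1.27 (0.856 to 1.79) and 3.72 (2.61 to 5.11) FPKM. Dnmt3l, the cofactor of the methyltransferases, had 4 fragments in d12 and 3 in d16. It rose from d16 to d24 with a ratio of 6.64 (1.83 to 30.0), beside 27.5% of all genes. From d24 to the adult it rose with a ratio of 2.93 (1.78 to 4.9), beside 11.4% of all genes. It was the only one of these 4 genes that rose in a step.

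The Argonautes of the microRNA pathway, the relatives of the Piwi proteins, were below both Piwil1 and Piwil2 in the d16, d24 and adult libraries. In d12 they were below Piwil2 (24.3 FPKM) but had higher values than Piwil1 (2.9 FPKM). The d12 intervals of Ago2 and Ago4 overlap with that of Piwil1. Ago3 measured 10.4, 8.09, 3.83 and 3.69 FPKM in stage order. It fell from d16 to d24 with a ratio of 0.474 (0.426 to 0.527), beside 8.45% of all genes. This fall was not there with division by Gapdh (0.08 on the log2 scale). Ago4, a germ cell Argonaute of meiosis, measured 3.42, 7.61, 12.1 and 9.03 FPKM. It rose 2.23-fold (1.93 to 2.57) from d12 to d16, beside 12.6% of all genes. Ago1 measured 5.24, 3.5, 2.27 and 1.52 FPKM, and Ago2 measured 3.18, 5.02, 5.48 and 4.36 FPKM.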
